A study of Mus musculus with 3 samples.

Results

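Sst, Npy, Cck, Vip, Cort, Nts, Cartpt and Crh are 8 neuropeptide genes outside the opioid and tachykinin families. They were taken by symbol, and all 8 were found among the 28001 features of the count matrix. The matrix holds single cells of the mouse nucleus accumbens in 3 libraries of 1 group. All 3 libraries came from Thy1::ChR2 mice, a line in which the Thy1 promoter drives the light-gated channel channelrhodopsin (ChR2). Cells were marked with FLiCRE while ChR2 was stimulated optically in the accumbens, and tissue was taken from coronal dissections 400 um thick. FLiCRE is a light- and calcium-gated tool that switches on a reporter gene, taken here to be the mCherry feature, in cells that were active during the light. No unstimulated group was analysed here, so each comparison is between cells of the same libraries. The labels do not say whether the libraries came from separate animals, so p-values measure only the spread between these 3 libraries, which may be technical.

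Neuropeptides are made as larger precursors, cut in the secretory pathway by prohormone convertases and stored in dense-core vesicles with granins. They act on G-protein-coupled receptors, often on neighbouring cells. In the striatum, somatostatin (Sst) and neuropeptide Y (Npy) are classic products of the interneurons that make nitric oxide with Nos1. Cortistatin (Cort) is a close relative of somatostatin, vasoactive intestinal peptide (Vip) marks a rare interneuron, and cholecystokinin (Cck) is abundant in cortical projection neurons. Neurotensin (Nts) and the CART peptide (Cartpt) are made by spiny projection neurons of the ventral striatum, and corticotropin-releasing hormone (Crh) is the peptide that starts the hormonal stress response and is also made by scattered forebrain neurons.

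On GRCm38 (GENCODE M21), Sst lies at chr16:23889573-23890958, Npy at chr6:49822710-49829507, Cort at chr4:149125034-149126763 and Vip at chr10:5639218-5647617. Cck lies at chr9:121489824-121495694, Nts at chr10:102481756-102490486, Cartpt at chr13:99898489-99901091 and Crh at chr3:19693401-19695396. No annotated gene overlapped any of the 8. Neuropeptide genes are textbook targets of the cAMP response element, the palindrome TGACGTCA. Its core is TGACG, which reads as CGTCA on the other strand. The 150 bases before the RefSeq start site (GRCm38.p6, 7 of the 8 genes matched by symbol) were searched for this core on both strands, and the 5 stretches with a match are shown because they separate Sst from Npy, the pair that shares cells below. Each stretch has 30 bases, 5′ to 3′ on the gene's strand, with the match in capitals.
Sst, chr16:23890874-23890903 (minus strand): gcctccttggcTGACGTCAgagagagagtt
Cartpt, chr13:99900777-99900806 (minus strand): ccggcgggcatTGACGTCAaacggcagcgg
Cck, chr9:121495723-121495752 (minus strand): ctgctggactgCGTCAgcactgggtaaaca
Vip, chr10:5639128-5639157 (plus strand): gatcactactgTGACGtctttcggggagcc
Cort, chr4:149126764-149126793 (minus strand): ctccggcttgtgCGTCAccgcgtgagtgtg
Sst and Cartpt held the full palindrome, which contains both cores overlapping, and its first base lay 48 and 112 bases before the start. The Cck, Vip and Cort windows held 1 core each and no palindrome. The same windows of Npy and Nts held neither, which says only that these letters are not in this stretch. Of 32851 promoter windows of this length in the table, 13.3% held the core and 1.36% the palindrome. The Sst and Cartpt stretches lie inside the gene bounds of GENCODE given above, since its starts for these genes lie upstream of those of RefSeq.

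The 3 libraries held 2717, 6627 and 2281 deposited cells with medians of 894, 2019 and 2330 unique molecular identifiers (UMIs, tags that let each RNA molecule be counted once). Libraries are numbered by the suffix of their cell barcodes, which nothing ties to a numbered replicate, and they shared 13 (libraries 1 and 2), 7 (1 and 3) and 22 (2 and 3) barcode sequences. After filters and removal of likely doublets, 9923 cells remained. Gates on panels of marker genes, none of them a member, gave 5141 neurons (828, 3430 and 883 in libraries 1, 2 and 3) and 4077 non-neuronal cells (1236, 1992 and 849). Neurons had median depths of 1033, 2467 and 2573 UMIs, and non-neuronal cells 1016, 1660 and 3100. Spiny neurons numbered 4336, of which 1059 were D1-like, 945 D2-like and 2332 neither by their markers. The other classes used were 330 glutamatergic neurons, 32 Nos1-type interneurons, 50 Pvalb-type interneurons, 144 other GABAergic neurons and 238 mural cells, the pericytes and smooth muscle of vessels. Spiny neurons, the main cell of the accumbens, were the largest class, as is usual for the labelled tissue. Glutamatergic neurons, gated on a panel that includes the vesicular glutamate transporters Slc17a7 and Slc17a6, are typical of the cortex and other neighbours of the accumbens. Levels are given as CPM, the UMIs of a gene summed over the cells of a class and scaled to the same total. The Nos1 panel (Nos1, Chodl, Tacr1) summed to 3539 CPM in Nos1-type cells, against 8.99 CPM in the D1-like class and 10.2 CPM in the D2-like class.

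The 5 members with enough counts to be tested were each higher in neurons than in non-neuronal cells, in 3 of 3 libraries. They passed the low-count filter mainly through neurons, so nothing is read from their number. The background is high here: 66.8% of the 12531 genes tested differed between these populations, 31.8% higher and 35.0% lower in neurons (edgeR quasi-likelihood test on sums per library, adjusted p under 0.05). Sst stood at 473, 642 and 450 CPM in the neurons of libraries 1, 2 and 3, and at 2.48, 69.5 and 12.1 CPM in non-neuronal cells. Its log2 fold change was 4.42 (SE 0.615, adjusted p 0.00054, edgeR). Every neuronal value lay above every non-neuronal one, but the non-neuronal level differed widely between libraries. Npy was measured at 228, 488 and 326 CPM against 7.45, 58.4 and 17.5 CPM (log2 fold change 3.50, SE 0.307). Cartpt reached 189, 259 and 172 CPM against 2.48, 31.2 and 3.03 CPM (4.15, SE 0.540). Cck, a peptide also found in the gut, had 132, 54.8 and 129 CPM against 0.621, 11.8 and 7.75 CPM (3.34, SE 0.603). For these 4 genes library 2 had the highest non-neuronal level, and levels of the size seen there were read as free RNA, molecules from broken cells caught with intact ones.

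Nts had the smallest difference, 30.2, 165 and 51.9 CPM in neurons against 4.34, 44.8 and 8.08 CPM outside them (log2 fold change 1.92, SE 0.222). Without mural cells the non-neuronal Nts levels were 0.631, 19.3 and 4.23 CPM. Vip, Cort and Crh were too sparse for the filter. Crh stood at 1.04, 12.6 and 9.62 CPM in neurons and 0.621, 1.36 and 0.337 CPM in non-neuronal cells. Vip had 45 UMIs in all neurons and 2 in all non-neuronal cells, a CPM ratio of 14.7 (3.84 to 125, exact 95% interval for counting error only). Cort had 30 against 1, a ratio of 19.6 (3.26 to 799). The median log2 fold change was 3.50 for the 5 tested members and -0.06 for all genes tested. Since the members passed the filter mainly through neurons, nothing is read from this difference. Each 3′ UMI stands for 1 molecule, so CPM can be set side by side between genes without a correction for length.

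**Figure D1:**
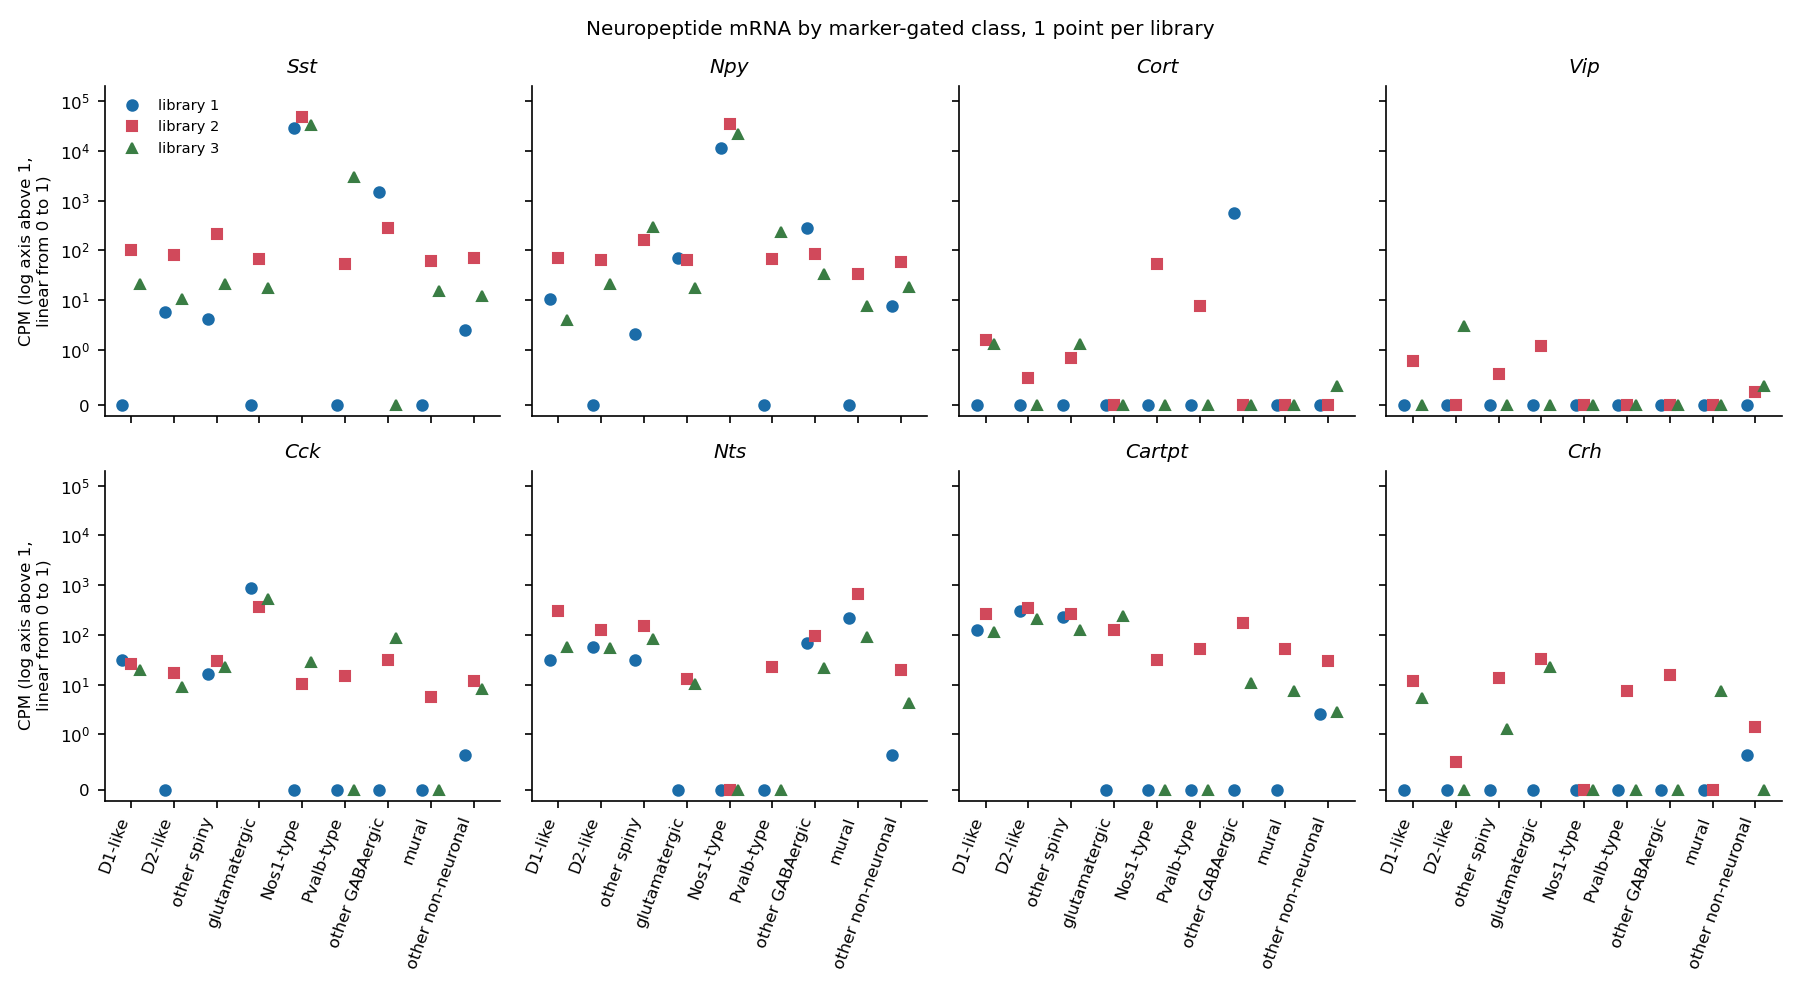
Level of each neuropeptide mRNA (CPM, log axis above 1 and linear below) by marker-gated class, with 1 point per library. Sst and Npy stand highest in Nos1-type interneurons and Cck in glutamatergic neurons in all 3 libraries, whereas Nts has its highest library value in mural cells and Cartpt is spread over the spiny classes.

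Receptors for these peptides, from a list of 19 genes, were tested where counts allowed, and the rest had too few. All 10 tested differed, 8 higher in neurons and 2 lower, with a median log2 fold change of 3.21. Of all genes tested 66.8% differed (31.8% higher, 35.0% lower in neurons), and the median of all genes was -0.06. The largest rises were in the gastrin and cholecystokinin receptor Cckbr (3.97), the somatostatin receptors Sstr3 (3.93) and Sstr2 (3.23), the Crh receptor Crhr1 (3.70) and the Npy receptor Npy5r (3.68). Cckbr, Sstr2, Crhr1 and Npy5r had 4, 10, 6 and 5 UMIs in non-neuronal cells. These genes passed the low-count filter through neurons, so nothing is read from the number or median of the receptors. The neurotensin receptor Ntsr2 fell by 4.01 on the log2 scale, from a mean of 226 CPM outside neurons to 18.6 CPM in them. Of 11 genes for processing and granule proteins 10 were tested and 9 differed (7 higher, 2 lower, median 2.89). The granins Chgb (4.58), Scg2 (4.56) and Chga (3.98), the convertase Pcsk2 (4.18) and the neurosecretory protein Vgf (3.76) were higher in neurons, and Scg3 fell by 2.98. Processing genes could also pass the filter through neurons alone, so nothing is read from their number or median.

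High counts, defined as at least 5 UMIs of a member in 1 cell, were rare for all 8 genes. For Sst they were found in 0.966%, 0.933% and 1.13% of the neurons of libraries 1, 2 and 3 (1.01% ± 0.107, SD, n = 3 libraries) and in 0 of 4077 non-neuronal cells, which allows up to 0.0736%. The share for Npy was 0.948% ± 0.268 and 2 non-neuronal cells passed, 1 gated as an oligodendrocyte and 1 as a microglial cell or macrophage. Cck reached 1.08% ± 0.647, Cartpt 2.85% ± 1.53, Crh 0.124% ± 0.115, Vip 0.0572% ± 0.0566 and Cort 0.0403% ± 0.0697. Nts was at 0%, 2.16% and 0.680% (0.946% ± 1.10), and its mean without library 2 was 0.340%. Leaving out 1 library gave 0.0729% to 0.186% for Crh, 0.0292% to 0.0858% for Vip, 0% to 0.0604% for Cort and 0.714% to 1.33% for Cck. No non-neuronal cell passed for Cck, Cartpt, Crh, Vip or Cort, and 7 did for Nts. After each cell was thinned to 1000 UMIs and 3 UMIs were asked for, the shares were 1.21% for Sst, 1.17% for Npy, 0.566% for Cck, 0.450% for Nts and 2.38% for Cartpt. Thinning left out 391, 251 and 84 neurons with fewer UMIs.

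Most Sst molecules sat in very few cells. A Sst UMI was found in 728 neurons, but 82.0% of these had exactly 1, while the 50 neurons with high counts held 7320 of the 8091 Sst UMIs of all neurons (90.5%). For Npy the 47 neurons with high counts held 87.9% of UMIs. The corresponding share was 84.4% for Vip, 64.2% for Cartpt, 61.7% for Cck, 45.8% for Nts, 32.0% for Crh and 26.7% for Cort. Sst and Npy thus came mainly from a few cells with up to 651 and 700 UMIs. The maxima were 38 UMIs for Nts and 12 for Crh, and the 10 neurons with most UMIs held 14.0% of Nts and 39.9% of Crh.

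**Figure D2:**
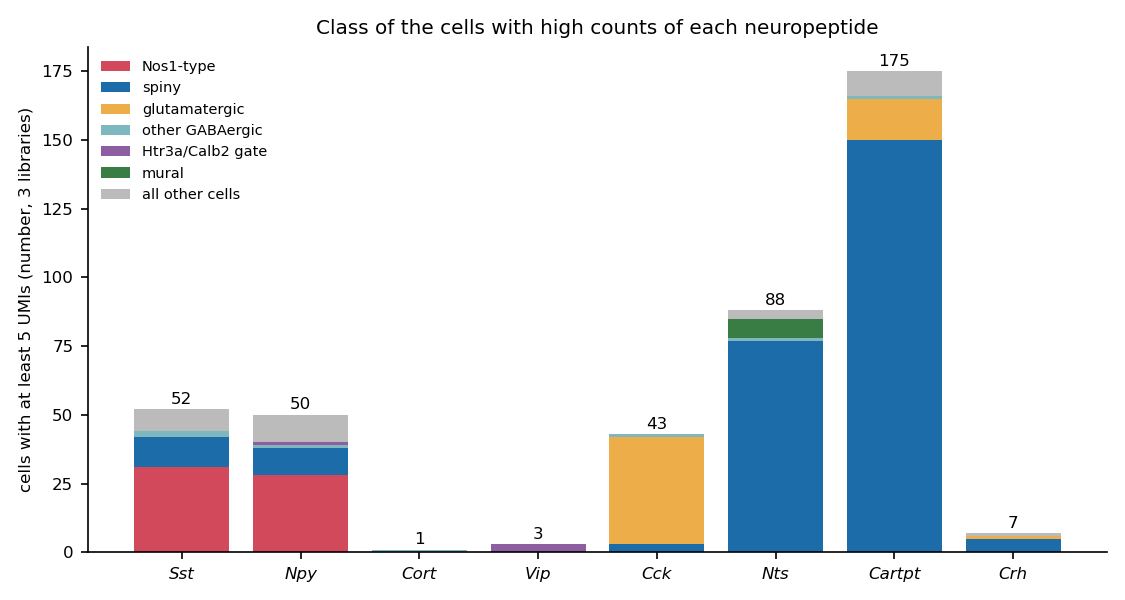
Number of cells with at least 5 UMIs of each neuropeptide over the 3 libraries, coloured by the class given by markers that exclude the members. Nos1-type cells make up 31 of 52 Sst-high and 28 of 50 Npy-high cells, glutamatergic neurons 39 of 43 Cck-high cells, and spiny neurons 77 of 88 Nts-high and 150 of 175 Cartpt-high cells.

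Nos1-type interneurons carried Sst at 28084, 46861 and 32186 CPM in libraries 1, 2 and 3. Spiny neurons had 4.0, 144 and 17.9 CPM, so all 3 Nos1-type values lay far above all 3 spiny values. The log2 fold change was 9.75 (SE 0.705, adjusted p 1.5e-07, edgeR). Npy followed with 11428, 34177 and 21323 CPM in Nos1-type cells and 2.66, 110 and 113 CPM in spiny neurons (log2 fold change 8.28, SE 0.596). Of the 8 members 4 had enough counts for the test and were called, 2 in each direction, where 8.88% of 6900 genes were (3.67% higher, 5.22% lower). Each of the 4 passed the filter through the class in which it was high, so nothing is read from that number. This comparison used 7, 18 and 7 Nos1-type cells, and when any 1 library was left out edgeR called no gene at all, with 772 to 1408 genes at an unadjusted p under 0.05; the fold changes of Sst then ranged from 9.24 to 10.9 and those of Npy from 7.81 to 8.96 on the log2 scale.

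Within the 32 Nos1-type cells, Sst ranged from 3 to 651 UMIs with a median of 110.5, and 31 had high counts (6 of 7, 18 of 18 and 7 of 7). Npy counts were high in 28 (5 of 7, 16 of 18 and 7 of 7), and 2 cells of library 2 had none. The 2 peptides were also found together when all neurons were taken, Nos1-type cells included. Of the 50 neurons with high Sst, 44 (88.0%) had a Npy UMI and 38 (76.0%) had high Npy, against 12.5% and 0.177% of the remaining neurons. The Sst-high neurons were deeper, with a median of 4264.5 against 2170 UMIs. Among the 19 Sst-high neurons outside the Nos1 gate, 10 had high Npy, 3 had high Nts and 1 had high Cort. Of the 19 Npy-high neurons outside it, 11 had a Sst UMI and 10 had high Sst. A spiny neuron of library 3 with 176 Npy UMIs had no Sst. The ratio of Sst to Npy UMIs in Nos1-type cells was 2.46, 1.37 and 1.51 in libraries 1, 2 and 3, and in non-neuronal cells 0.333, 1.19 and 0.692, so library 2 had the closest ratios of the 3.

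**Figure D3:**
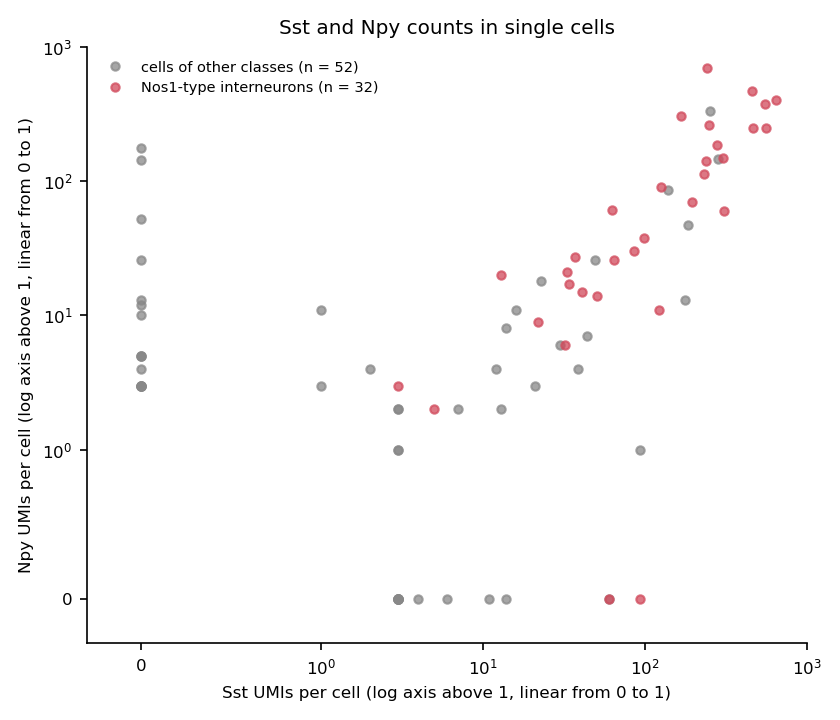
Npy against Sst UMIs per cell (log axes above 1, linear below) for the 32 Nos1-type interneurons and the 52 cells of other classes with at least 3 UMIs of either gene. Most Nos1-type cells lie at high counts of both, and 2 have Sst without Npy.

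In D1-like, D2-like and glutamatergic neurons Sst was of the size seen outside neurons. In library 2 it was 103 CPM in D1-like, 79.2 in D2-like and 68.2 in glutamatergic neurons, next to 69.5 CPM in non-neuronal cells. The corresponding values in library 3 were 21.2, 10.6 and 17.7 CPM next to 12.1 CPM. Other spiny neurons had 4.17, 210 and 20.9 CPM, with 7 cells of high Sst in library 2. Higher values in the remaining classes came with 1 or 2 Sst-high cells per library. Other GABAergic neurons had 1472, 278 and 0 CPM with 1, 1 and 0 such cells. Pvalb-type interneurons had 0, 52.7 and 2966 CPM, and 1 cell of library 3 held 177 Sst UMIs. Neurons in no gate had 4701 and 354 CPM in libraries 1 and 2, with 1 Sst-high cell in each. Cells in several gates at once had 1801 and 1300 CPM in libraries 2 and 3, with 2 and 1. Npy was at 299 CPM in other spiny neurons of library 3, where 3 of 307 cells had high counts. Of the 50 cells with high Npy, 4 passed the gates of several classes at once.

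Cort was very sparse. Nos1-type cells held 5 Cort UMIs in 2 of 32 cells, both in library 2 (0, 52.2 and 0 CPM), and spiny neurons 10 UMIs in 4336 cells. The only cell with high counts was an other GABAergic neuron of library 1 with 8 Cort UMIs, which also had high Sst. Of neurons with high Npy, 6 of 47 had a Cort UMI, against 0.236% of the remaining neurons. The Npy-high neurons were deeper, with a median of 4287 against 2171.5 UMIs, and the part of depth was not tested. At this depth a Cort difference between most classes was not detectable.

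Vip was confined to a handful of cells among those measured. The 3 cells with high Vip, 2 in library 2 and 1 in library 3, all passed the Htr3a/Calb2 gate, which held only 8 neurons (1, 6 and 1). That gate rests on 2 detected markers, with Adarb2 at 0, and is not taken as a cell type. It contained 38 of the 45 Vip UMIs of all neurons and had Vip levels of 0, 962 and 11551 CPM, the last from 1 cell. All 3 Vip-high cells carried a Crh UMI and 2 a Npy UMI. Nos1-type, Pvalb-type and other GABAergic neurons had no Vip UMI. Taking 3 counts as the limit for a count of 0, this allows for the 32 Nos1-type cells a level of up to 21.3 CPM and a share of up to 9.38% of cells with a UMI.

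Cck marked the glutamatergic neurons. It stood at 880, 358 and 524 CPM in these cells and at 14.7, 25.1 and 17.5 CPM in spiny neurons, with no overlap. The log2 fold change was 4.68 (SE 0.324, adjusted p 6.8e-05, edgeR), and it held its direction and its call without each library. Of the glutamatergic neurons 54.4%, 30.4% and 39.4% had a Cck UMI, and 7 of 68, 19 of 168 and 13 of 94 had high counts (10.3%, 11.3% and 13.8%; 11.8% ± 1.82). The high share in spiny neurons was 0%, 0.0338% and 0.287%. Glutamatergic neurons were deeper, with a median of 4026 against 2156.5 UMIs. After thinning to 1000 UMIs, 7.41%, 2.38% and 5.38% of them had at least 3 Cck UMIs and no spiny neuron did. Sst (log2 -0.73, adjusted p 0.138, edgeR), Npy (-0.91, adjusted p 0.494) and Cartpt (-0.68, adjusted p 0.523) were not called between these classes. Without library 1 Sst (-0.84, adjusted p 0.0040) and Npy (-1.30, adjusted p 0.020) were called, and without library 3 Cartpt was (-1.84, adjusted p 0.040).

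Nts was lower in glutamatergic neurons, at 0, 12.9 and 10.4 CPM against 37.3, 192 and 64.3 CPM in spiny neurons (log2 fold change -3.42, SE 0.350, adjusted p 0.00016, edgeR). Without library 2 the adjusted p for Nts was 0.057. Thus 2 of 5 tested members differed between glutamatergic and spiny neurons, where 17.8% of 8861 genes did (9.92% higher, 7.83% lower). Crh was below the filter, with 0, 32.9 and 22.2 CPM in glutamatergic and 0, 9.86 and 2.30 CPM in spiny neurons. Without library 1, in which neither class had a Crh UMI, Crh entered the test at a log2 fold change of 2.09 (adjusted p 0.00011, edgeR). It passed the filter through the glutamatergic sums, so nothing is read from this call. In that fit 5 of 6 members were called. The share of all genes called there is not given, so nothing is read from this number either. Of 8 receptors tested, 3 differed, all higher in glutamatergic neurons: Sstr3 (3.63), Cckbr (2.79) and Adcyap1r1, the PACAP receptor of the Vip family (1.43). Sstr3 and Cckbr stood at 2.38 and 4.20 CPM in pooled spiny neurons and passed the low-count filter through glutamatergic neurons. Nothing is therefore read from the number or shared direction of these receptors. The Cck receptor Cckbr was thus higher in the same class as Cck, at a mean of 33.4 against 6.40 CPM. Among 10 processing genes the granins Chga (1.85) and Chgb (1.58) and the carboxypeptidase Cpe (0.78) were higher, while Scg2 fell by 0.84 and Vgf by 0.76. The median was -0.02 for processing genes, the same as for all genes. For receptors it was 0.99, from which nothing is read for the same reason of the filter.

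D1-like and D2-like neurons, the spiny classes of the direct and indirect pathways, were compared for Nts and Cartpt in particular, which both express. Nts stood at 31.5, 306 and 57.0 CPM in D1-like and 57.0, 126 and 53.2 CPM in D2-like neurons of libraries 1, 2 and 3. It was higher in D1-like neurons of libraries 2 and 3 and lower in library 1, and the ranges overlapped. The fit gave a log2 fold change of 1.0 (SE 0.164, adjusted p 8.8e-05, edgeR), but without library 2 it was -0.06. Cells with high Nts numbered 0 of 78, 36 of 778 and 3 of 203 among D1-like neurons and 0 of 145, 13 of 614 and 0 of 186 among D2-like neurons. After thinning, 16.5% of D1-like and 8.28% of D2-like neurons of library 2 had a Nts UMI, with 2.53% and 2.76% in library 3.

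Cartpt went the other way, with 126, 268 and 117 CPM in D1-like and 308, 339 and 205 CPM in D2-like neurons, lower in D1-like neurons in 3 of 3 libraries. It fell by 0.56 on the log2 scale (SE 0.118, adjusted p 0.0027, edgeR). These 2 of 5 tested members passed where 2.34% of 8295 genes did (1.31% higher, 1.02% lower). Neither passed in DESeq2 (adjusted p 1.0 for Nts and 0.109 for Cartpt), without the library as a block, or with library 2 or library 3 left out. Cck was at 31.5, 25.7 and 19.9 CPM in D1-like and 0, 16.9 and 9.11 CPM in D2-like neurons and was not called (log2 0.77, adjusted p 0.299, edgeR). Sst (0.40) and Npy (-0.06) were not called either. The Crh receptor Crhr1 was the 1 receptor of 6 tested that passed; it fell by 1.54 on the log2 scale (adjusted p 0.048, edgeR) with lower values in 2 of 3 libraries and means of 13.7 CPM (D1-like) and 14.5 CPM (D2-like). Of 10 processing genes 0 passed in edgeR (4 at an unadjusted p under 0.05) and 0 in DESeq2.

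Nos1-type interneurons had little or none of the spiny peptides Nts and Cartpt. Their 140732 UMIs held no Nts, at least 7.33-fold below the pooled spiny level of 156 CPM when the limit is taken at 3 counts (adjusted p 0.0029, edgeR). DESeq2 did not call Nts here (adjusted p 0.526). Cartpt had 3 UMIs in Nos1-type cells, a ratio to spiny neurons of 0.0846 (0.0174 to 0.248). No Crh UMI was found, and Cck had 2 UMIs, a ratio of 0.622 (0.0749 to 2.27). Among the listed partners the Crh-binding protein Crhbp was 8.27 higher on the log2 scale in Nos1-type cells (602 against 1.60 CPM on average), the 1 of 3 receptor genes tested that passed. Crhbp reached the test through Nos1-type cells, so only its levels are read and not its call. Of 10 processing genes 5 passed: the amidating enzyme Pam (3.65), Vgf (2.12), Scg2 (1.87) and Scg3 (1.74) were higher, and Pcsk2 fell by 1.67. The median over all genes in this fit was -0.21.

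Pvalb-type interneurons, tested in libraries 1 and 2 with 11 and 30 cells, gave no called member of 4 and no called gene of 7290 in edgeR (0.0%). At an unadjusted p under 0.05 edgeR gave 1356 genes, and DESeq2 called 400. Nts had 3 UMIs in these cells, a ratio to spiny neurons of 0.107 (0.0220 to 0.313), and Cartpt stood at 0 and 52.7 CPM against 232 and 283 CPM. With library 3 included (9 cells) Nts (log2 -3.30, adjusted p 0.0032) and Cartpt (-2.92, adjusted p 0.0031) passed in edgeR, a setting chosen after the data were seen.

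Cartpt had the most cells with high counts of the 8 peptides. High counts occurred in 49 of 1059 D1-like, 48 of 945 D2-like and 53 of 2332 other spiny neurons, and in 15 of 330 glutamatergic neurons (0, 6 and 9 in libraries 1, 2 and 3). In glutamatergic neurons its level was 0, 126 and 244 CPM. Other spiny neurons, with 225, 261 and 126 CPM, overlapped both D1-like and D2-like neurons. Among these 4 classes D2-like neurons had the highest mean level, then other spiny, D1-like and glutamatergic neurons, and neighbours in that order overlapped between libraries. In library 2 the 10 cholinergic cells stood at 416 CPM with 1 Cartpt-high cell, and 10 neuroblasts at 855 CPM with 2. Of 80 neurons with high Nts, 15 (18.8%) had high Cartpt, against 3.12% of the remaining neurons, which had fewer UMIs (medians 4215 and 2147).

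Crh was sparse but unevenly placed. D1-like neurons held 34 Crh UMIs and D2-like neurons 1, a CPM ratio of 28.9 (4.85 to 1176, counting error only). The 34 UMIs lay in 16 of 1059 D1-like cells, and 30 of them in 12 cells of library 2. By library the D1-like level was 0, 12.1 and 5.30 CPM and the D2-like level 0, 0.498 and 0 CPM. The gene was below the filter for this test. All 7 neurons with high Crh (5 spiny, 1 glutamatergic and 1 in several classes) carried a Cartpt UMI, and 3 of them had high Cartpt, against 17.6% and 3.31% of the remaining neurons. Their median depth was 4777 against 2177.5 UMIs, and whether depth has a part in this was not tested.

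Outside neurons, Nts stood out in mural cells. It was at 215, 658 and 91.2 CPM there and at 0.631, 19.3 and 4.23 CPM in the other non-neuronal cells, with each mural value above each of the others. The log2 fold change was 5.03 (SE 0.379, adjusted p 3.2e-10, edgeR), in a comparison added after the level was seen, in which 23.6% of 8704 genes differed (9.16% higher, 14.4% lower). That is 2051 genes, and 283 to 756 were called when 1 library was left out; Nts was called each time. Sst (-0.15) and Npy (-0.99), the other members tested, were not called. A Nts UMI was found in 8.11%, 21.3% and 15.0% of mural cells, against 0.0834%, 4.27% and 1.39% of the other non-neuronal cells. Mural levels were above those of spiny neurons in each library (37.3, 192 and 64.3 CPM). The mural values rested on 6, 116 and 12 Nts UMIs in libraries 1, 2 and 3. In library 3 the other spiny neurons, at 81.1 CPM, came close to the mural 91.2 CPM.

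Nts was found mainly in mural cells without the smooth-muscle actin Acta2, itself a gene of the mural gate (with Vtn, Rgs5, Kcnj8 and Higd1b). With 0 Acta2 UMIs (27, 81 and 41 cells) the Nts level was 318, 1330 and 137 CPM, and with at least 1 (10, 60 and 19 cells) it was 0, 43.5 and 19.5 CPM. The 12 mural cells with at least 3 Nts UMIs (10 in library 2) had no Acta2, against 5029 CPM in mural cells without Nts. The pericyte gene Vtn stood at 6861 against 4178 CPM, Kcnj8 at 1203 against 533 CPM and Higd1b at 4103 against 2532 CPM. Rgs5 went the other way, at 4669 against 6349 CPM. All 7 mural cells with high Nts were in library 2. In mural cells the spiny opioid gene Penk stood at 104 CPM and the spiny marker Ppp1r1b at 95.3 CPM, where neurons had 2732 and 1280 CPM. The 10 mural cells of library 2 with at least 3 Nts UMIs had 186 CPM of each, against 2610 and 1170 CPM in its neurons. The GABAergic marker Gad1 stood at 90.8 CPM in mural cells of library 2 (neurons 614 CPM) and at 0 in those of libraries 1 and 3. The Nos1 panel was at 0 in mural cells, but Nos1-type cells held no Nts themselves, so nothing is read from it.

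**Figure D4:**
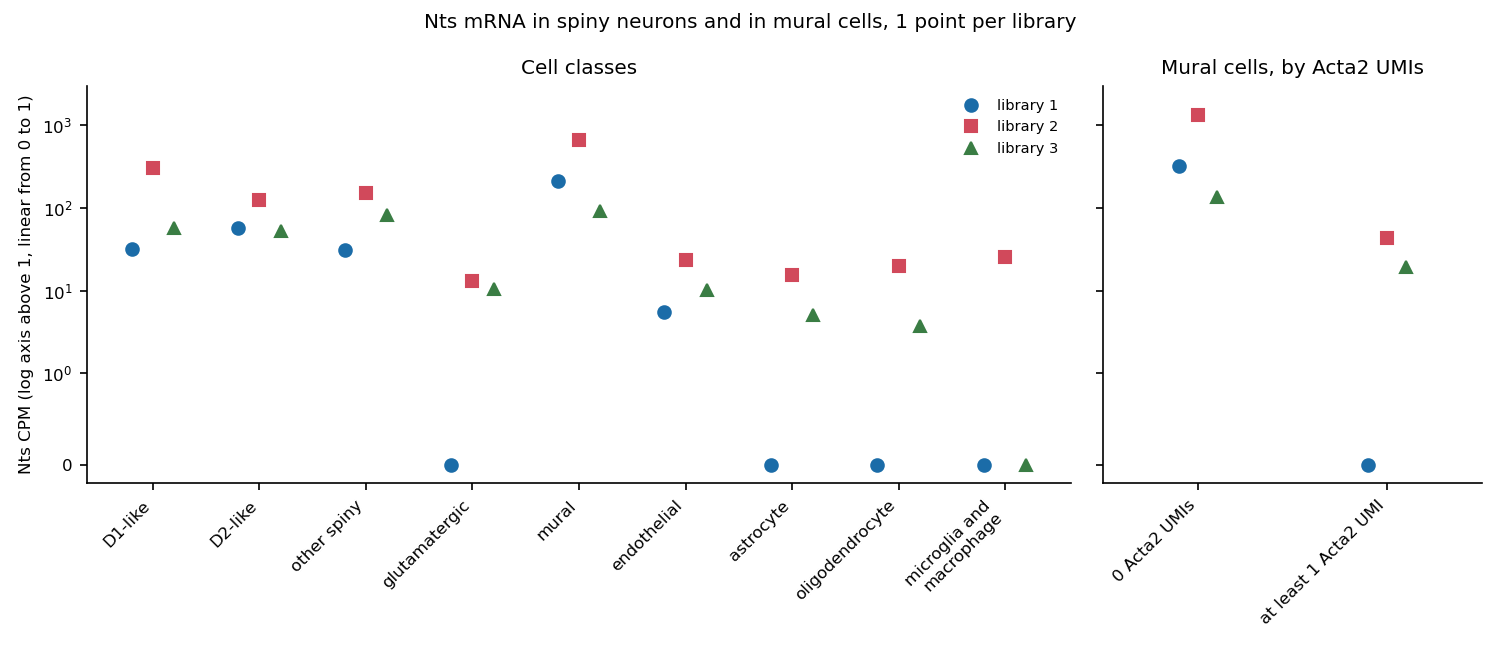
Nts level (CPM, log axis above 1 and linear below) by class, with 1 point per library, and on the right in mural cells split by Acta2 UMIs. Within each library the mural value lies above those of the other non-neuronal classes and above the spiny classes, and the mural cells without Acta2 lie above those with it.

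Neurons with at least 1 mCherry UMI were called labelled: 47 of 828 (5.68%), 656 of 3430 (19.1%) and 98 of 883 (11.1%). In non-neuronal cells an mCherry UMI was found in 1.62%, 10.2% and 5.30% (median depths 1016, 1660 and 3100 UMIs against 1033, 2467 and 2573 in neurons). After thinning the shares were 5.03%, 8.52% and 4.26% of neurons and 0.936%, 4.97% and 1.25% of non-neuronal cells. Labelled neurons can thus include cells with free mCherry RNA, and how many was not tested. The other construct features, TEV and tTA, had a UMI in 38.2% and 26.0% of all neurons, where mCherry had one in 15.6%. Unlabelled neurons thus include cells with construct RNA but no mCherry UMI. Whether construct delivery has a part in the differences below was not tested. CPM in the labelled comparisons leaves the construct features out of the total. Sst, Npy and Cck were higher in labelled neurons in the earlier account of these data, so their values here are the base for a split by class and add no support. Sst was at 1557, 941 and 1016 CPM in labelled and 377, 547 and 337 CPM in unlabelled neurons (log2 1.28, SE 0.152, adjusted p 0.0077, edgeR). Npy was at 179, 771 and 633 against 233, 398 and 265 CPM (1.0, adjusted p 0.021), higher in 2 of 3 libraries. Cck was at 396, 89.3 and 223 against 109, 43.8 and 110 CPM (1.14, adjusted p 0.0052), higher in 3 of 3. Nts (0.45), Cartpt (-0.22) and Crh (0.03) were not called, so 3 of 6 tested members passed where 0.0776% of 10311 genes did (0.0679% higher, 0.0097% lower). Of 11 receptors 0 passed in edgeR (0 at an unadjusted p under 0.05), and of 10 processing genes 0 passed (3 unadjusted). DESeq2 called 0 of either list. Labelled neurons were deeper in each library, with medians of 1497, 3250 and 4636.5 against 1012, 2331.5 and 2422 UMIs. With unlabelled neurons matched on UMIs no member passed in edgeR (Sst 1.52, Npy 1.17, Cck 0.25).

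The Sst and Npy differences rested on 8 cells. Labelled Nos1-type interneurons (1, 5 and 2 cells) held 2321 of the 2863 Sst UMIs of all labelled neurons. Without Nos1-type cells Sst was at 0, 229 and 19.6 CPM in labelled and 188, 167 and 109 CPM in unlabelled neurons, and Npy at 39.4, 138 and 5.88 against 112, 156 and 107 CPM. Neither then passed, and the Npy fold change turned to -0.52 on the log2 scale. The share of labelled cells was 25.0% of Nos1-type interneurons (8 of 32, 11.5% to 43.4%, exact binomial), 16.0% of spiny neurons and 16.1% of glutamatergic neurons. Thinned to 1000 UMIs these shares were 9.68%, 7.74% and 6.67%. A tTA UMI was found in 53.1%, 26.8% and 23.0% of these classes (32.3%, 16.3% and 5.71% after thinning). A TEV UMI was found in 40.6%, 39.2% and 42.1% (22.6%, 24.2% and 15.6% after thinning).

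The Cck difference rested on glutamatergic neurons. Without them Cck was at 38.8, 23.7 and 15.5 CPM in labelled and 14.1, 26.4 and 19.97 CPM in unlabelled neurons (log2 -0.10). Among glutamatergic neurons alone, in a comparison added after this was seen, Cck was at 1085, 777 and 827 CPM in 9, 30 and 14 labelled cells and at 827, 225 and 449 CPM in 59, 138 and 80 unlabelled cells. It was higher in 3 of 3 libraries by a log2 fold change of 1.06 (SE 0.221) and did not pass (adjusted p 0.072, edgeR), where 0.0536% of 3732 genes did. Without library 1 it passed (1.31, adjusted p 5.7e-09), and with cells matched on UMIs, with Cck lower in labelled cells of library 3 (827 against 903 CPM), the log2 fold change was 0.55. High Cck was found in 3 of 9, 10 of 30 and 6 of 14 labelled and in 4 of 59, 9 of 138 and 7 of 80 unlabelled glutamatergic neurons. Labelled cells were deeper here too, with medians of 3131, 5572.5 and 9398 against 1660, 4306 and 6239.5 UMIs. After thinning to 1000 UMIs, 55.6%, 30% and 42.9% of labelled and 44.4%, 10.1% and 16.5% of unlabelled cells had a Cck UMI, and high counts remained in 0%, 3.33% and 7.14% against 8.89%, 2.17% and 5.06%.

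**Figure D5:**
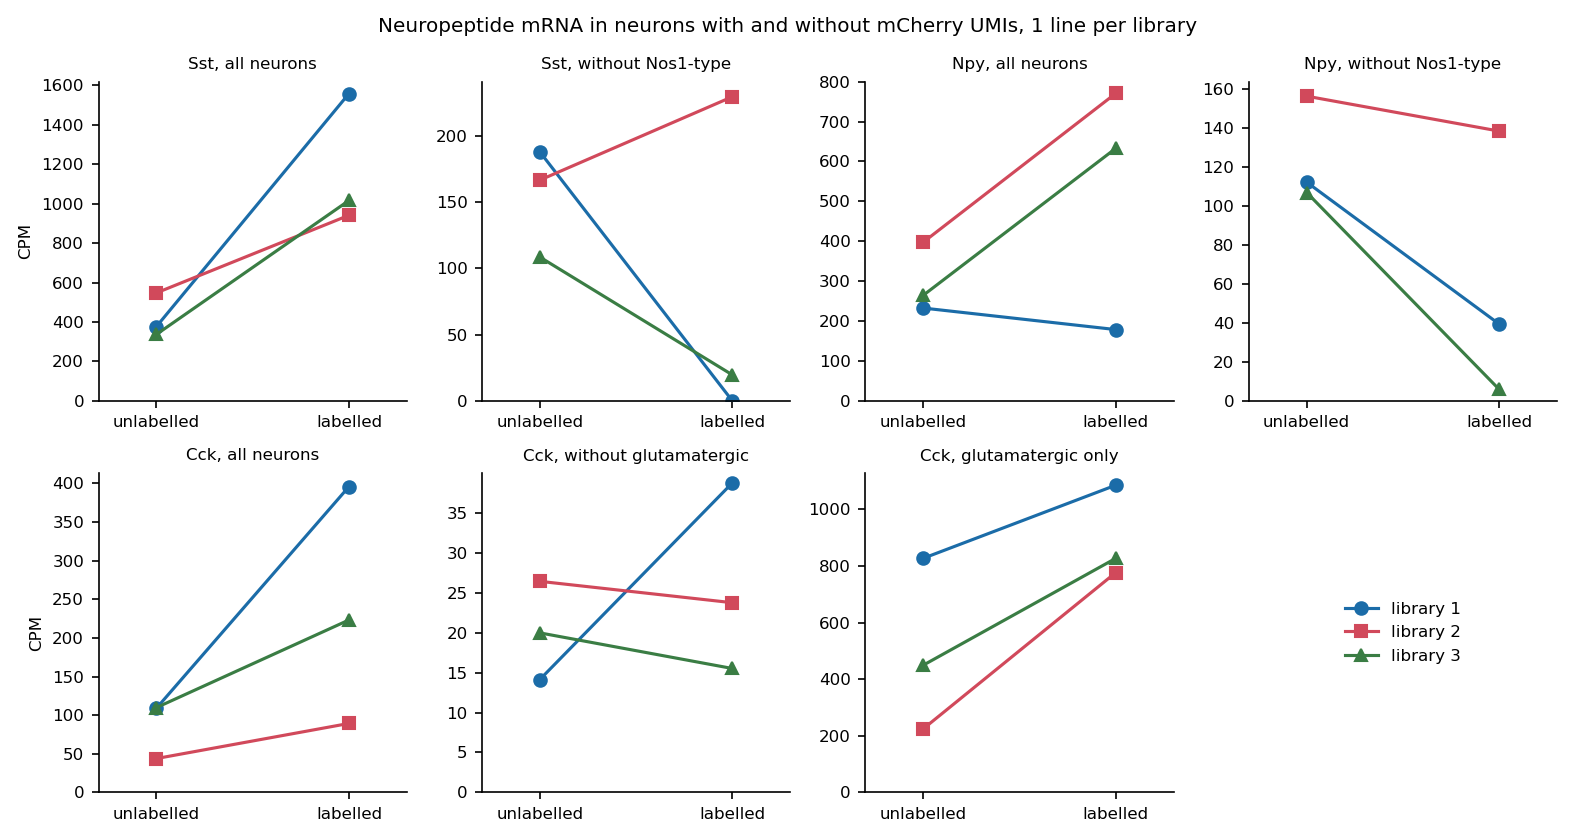
Sst, Npy and Cck levels (CPM, linear axes from 0) in unlabelled and labelled neurons, with 1 line per library, for all neurons, with Nos1-type (Sst, Npy) or glutamatergic neurons (Cck) left out, and for Cck in glutamatergic neurons alone. Sst is higher in labelled neurons in all 3 libraries among all neurons and in library 2 alone without Nos1-type cells, while Cck is higher in all 3 libraries among glutamatergic neurons and in library 1 alone without them.

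The spiny neurons that carried most Cartpt differed from those without it in a few other genes. Cells with at least 3 Cartpt UMIs were compared with cells of 0, matched on class, library and UMIs, and Cartpt itself was left out. Of 3614 genes tested 5 passed (0.138%), each higher in 3 of 3 libraries: Nnat (log2 1.60, 379 against 149 CPM, adjusted p 0.0024, edgeR), Gnas (1.21), Nts (1.47, adjusted p 0.0064), Pde1c (1.78) and Scg2 (0.98). None passed in DESeq2, without the library block or with any library left out. Crh had 37 UMIs in the Cartpt cells and 2 in the others, a ratio of 18.5 (4.78 to 159, counting error only). That interval takes UMIs as independent, but all 5 spiny neurons with high Crh were in library 2, with up to 12 UMIs in a cell. The same comparison for Nts gave no called gene of 6264 in edgeR, with 232 at an unadjusted p under 0.05, and none in DESeq2.

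Among glutamatergic neurons, cells with at least 3 Cck UMIs were compared with cells of 0, the nearest in UMIs of the same library, and 5 of 3962 genes passed (0.126%, with 0.0505% higher and 0.0757% lower). The Cck cells stayed deeper, with medians of 3124, 8505 and 8493 against 2600, 7489 and 8341 UMIs, and the part of depth was not tested. The nuclear receptor gene Nr4a2 had 124 UMIs in the Cck cells and 0 in the others, at least 37.1-fold higher over 3 counts in the group. Gm11549 was also higher (2.87, 163 against 22.6 CPM), while Plcxd2 fell by 2.86, Rprm by 3.23 and Rab3b by 3.53 on the log2 scale (adjusted p from 0.0091 to 0.018, edgeR). Crh had 1 UMI in the Cck cells and 26 in the others, a ratio of 0.0345 (0.000842 to 0.210). Leaving out 1 library gave 0 to 298 genes. In labelled over unlabelled glutamatergic neurons 3110035E14Rik (1.63) and Pcp4 (1.05) passed, with 0 to 27 genes when a library was left out. All 4 comparisons were added after the data were seen.

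The genes whose pattern was most like each peptide were taken over 46 sums of 1 class in 1 library, by Pearson's r of log2(CPM + 1) among 10267 genes, as a description only, since the sums share libraries and depth. Sst and Npy were nearest to each other (0.86), followed for both by Psma3 (0.73 and 0.71) and Ralyl (0.68 for both). Cck was nearest to Mal2 (0.83), Rab26 (0.78) and Tubg2 (0.75). Cartpt was nearest to Cacna2d3 (0.88), Wipf3 (0.84) and the tachykinin gene Tac1 (0.83), and Nts to the serotonin receptor gene Htr1b (0.75), Arhgap6 (0.75) and Perp (0.69). For Cort, whose highest sum rests on 1 cell, the nearest were Crhbp (0.67), Atp5h (0.59) and Kcnc2 (0.58). Vip and Crh were below the mean of 10 CPM asked for.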

How the data were processed

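The authors deposited a single pooled matrix of raw UMI counts, prepared with the 10x Genomics 3′ v2 kit per the labels and made with Cell Ranger 3.0 on mm10 per the submitters' processing notes (3.0.0 per the file headers). The rule that called cells is not given in the sources used here. Filters asked for 300 or more genes and no more than 20% mitochondrial UMIs, which 10291 cells passed. Doublets were scored with Scrublet (scanpy 1.11.5, expected rate 0.06), and the highest scores were removed at 0.8% per 1000 cells (44, 296 and 28 cells). Gates asked for at least 2 UMIs of a class panel (3 UMIs from 2 genes for neuron and non-neuronal panels) and 2 times the next panel; 85 of 87 panel genes were found. The members and lists were chosen with earlier results of these data known. Counts were summed per library and class, with at least 10 cells, and tested with edgeR 4.0.16 (R 4.3.3; glmQLFit with robust = TRUE and legacy = FALSE, TMM, filterByExpr, Benjamini-Hochberg at 0.05 over all genes). The library is a block because both sums come from it. SE is the log2 fold change over the square root of F. The Nos1-type comparison uses at least 5 cells, since only library 2 had 10, a choice made after the data were seen. DESeq2 1.42.0, no block, no filter, other gates, depth cuts and left-out libraries were alternatives. Scripts were tested on simulated data. Named genes are the members, list genes that passed (at most 6 per list) and the 3 genes of most similar pattern. Intervals are exact, limits for a count of 0 are 3 counts over the total, and both cover counting error only. CPM is scaled to the UMIs of the summed cells.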

Additional observations from a re-analysis of the deposited data

Results flagged for a closer look

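Nts in mural cells drew attention because it is a signal in a non-neuronal class that the neuron comparisons do not use. Pooled over the 3 libraries it stood at 399 CPM, from 134 UMIs in 42 of 238 cells, above the 10.96 CPM of all other non-neuronal cells. It was above them in 3 of 3 libraries. The 7 mural cells with at least 5 Nts UMIs all came from library 2. The part of free RNA in the mural Nts level was not tested, and the Penk, Ppp1r1b and Gad1 levels given above do not measure it.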

How the results depend on the processing

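Of the alternative settings for single genes, 283 kept direction and side of the threshold, 48 lost the call, 16 gained it and 16 changed sign. Comparing sums without the library block, no member passed for D1-like over D2-like (2 with the block) or labelled over unlabelled neurons (3 with it), and 4 of 5 passed for neurons. The number of members called was 8 for neurons with no low-count filter. In the main neuron fit 66.8% of all genes were called. The share of all genes in each alternative setting is not given here, so these counts of members show only how the calls varied. For D1-like over D2-like it was 0 in DESeq2 and with gates of 3 panel UMIs. For Pvalb-type it was 1 in DESeq2, 2 with the package-default prior and 2 with at least 5 cells. For labelled neurons it was 0 with matched UMIs, 0 with class as covariate, 1 without Nos1-type cells and 1 without Sst- or Npy-high cells. Leaving out 1 library gave 0 to 2 members for D1-like over D2-like, 1 to 5 for glutamatergic, 0 to 0 for Nos1-type and 0 to 4 for labelled neurons; with 2 libraries no such test was possible for Pvalb-type. High shares with a minimum of 3 UMIs were 1.18% for Sst, 1.75% for Cck, 2.23% for Nts, 4.73% for Cartpt and 0.249% for Crh, 1.21% for Sst after thinning, and 1.17% for Cartpt at 10 UMIs. Signs changed (log2) for Npy D1-like over D2-like (-0.064 to 0.11 with a library left out, 0.30 with gates of 3, 0.0154 with doublets kept), Nts there (-0.0583 without library 2 to 1.16 without library 3) and Npy glutamatergic over spiny (-1.30 to 0.22 with a library left out). With 5 cells in Pvalb-type, Sst was 3.64 and Npy 0.20. In labelled neurons, signs changed for Sst (-0.0787 without Sst- or Npy-high cells), Npy (-0.68 with class as covariate, -0.52 without Nos1-type cells, -0.24 without high cells), Cck (-0.10 without glutamatergic neurons) and Crh (-0.43 in DESeq2, -0.0025 with no filter, -0.0549 with doublets kept), and for Sst in mural cells without the block (0.18). The cause was not tested, except that fewer libraries leave fewer degrees of freedom. Gates of 3 panel UMIs were not run for the neuron and label comparisons, which they do not change. Vip, Cort and Crh had too few counts for most tests.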
